A study of Anopheles gambiae with 9 samples.

Results

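A set of 135 transcripts of 134 genes was high in the pedicels of both kinds of XX Anopheles gambiae mosquito and low in those of XY males. They were chosen from 16066 transcripts of 13845 genes by their level in CPM, the estimated count of a transcript multiplied by 1000000 and divided by the total of its library, with no correction for transcript length. The lowest CPM over the 3 dsxF+/+ XX and the 3 dsxF-/- XX libraries had to be 2 or more, and at least 3 times the highest CPM of the 3 dsxF+/+ XY libraries with 0.5 added. The working name of the set was female transcripts kept without DsxF. The data went against that name for part of the set, since 54 of the 135 transcripts had a significantly lower level in dsxF-/- XX pedicels than in those of dsxF+/+ XX females. The set is therefore called by its rule, as the XX-high transcripts.

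The study compared pedicels of 3 groups, each with 3 libraries described as biological repeats and made from pools of pedicels. The dsxF+/+ XX mosquitoes, called females, and the dsxF+/+ XY mosquitoes, called males, were of the G3 strain, and the dsxF-/- XX mosquitoes, called intersex, were of a doublesexF mutant strain in which the female-specific exon of doublesex is disrupted in both copies. All were adults, 2 to 3 days old at the start of entrainment to light and dark for 3 days, and all were collected at the onset of dusk. Control pupae were separated by sex and mutant pupae were not, so that strain background, housing and the mutation cannot be told apart in any comparison with the intersex group. Whether a transcript is lower because fewer cells express it or because each cell holds less of it cannot be told apart in such bulk samples.

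Doublesex is a transcription factor near the end of the insect sex determination cascade. Its RNA is spliced differently in the sexes, so that females make DsxF and males make DsxM, proteins with the same DNA-binding domain and different ends. The pedicel is the antennal segment that houses the Johnston's organ, the mosquito ear, whose ciliated mechanosensory neurons are more numerous in males than in females. The deposited table, the paper and the reference table gave no name or function for any of the 135 transcripts, apart from the appearance of 1 of their genes in a dynein list of the study. They are therefore given by identifier, and no sequence was at hand for them. A keyword search for sex determination genes matched 0 of the transcripts that the study described by name. Whether doublesex itself is among the genes of the set was therefore not established.

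Library totals ran from 14177255 to 18379886 counts. The share of counts held by the top 10 transcripts was 23.6% in the third female library and between 8.95% and 14.2% in the other libraries. The transcript of nanchung (AGAP012241-RA), a TRP channel of Johnston's organ neurons, was present in every library, at 65.3, 75.4 and 52.1 CPM in females, 157, 209 and 199 CPM in intersex pedicels and 215, 201 and 245 CPM in males. It was higher in intersex pedicels than in females (log2 fold change 1.44, SE 0.18, edgeR adjusted p = 0.00208), so a marker of the sensory neurons moved between the XX groups in the direction opposite to most XX-high transcripts. The part of cell number in their values was not tested.

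The XX-high transcripts together took 2.81%, 1.91% and 1.98% of all counts in the female libraries. In the intersex libraries they took 0.992%, 1.30% and 1.14%. In the male libraries they took 0.173%, 0.0797% and 0.151%. The summed share was thus lower in every intersex library than in every female library, and lowest in the XY libraries, as the rule requires. The median member stood at 104, 75.7 and 80.6 CPM in females, at 33.0, 49.9 and 35.5 CPM in intersex pedicels and at 5.28, 1.63 and 4.46 CPM in males. Libraries within a group also differed over the set: the first female library held the highest value of its group for 101 of the 135 members (45.1% of all transcripts tested), the second intersex library for 88 (37.3%), and the second male library held the lowest for 110 (51.3%).

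**Figure D1:**
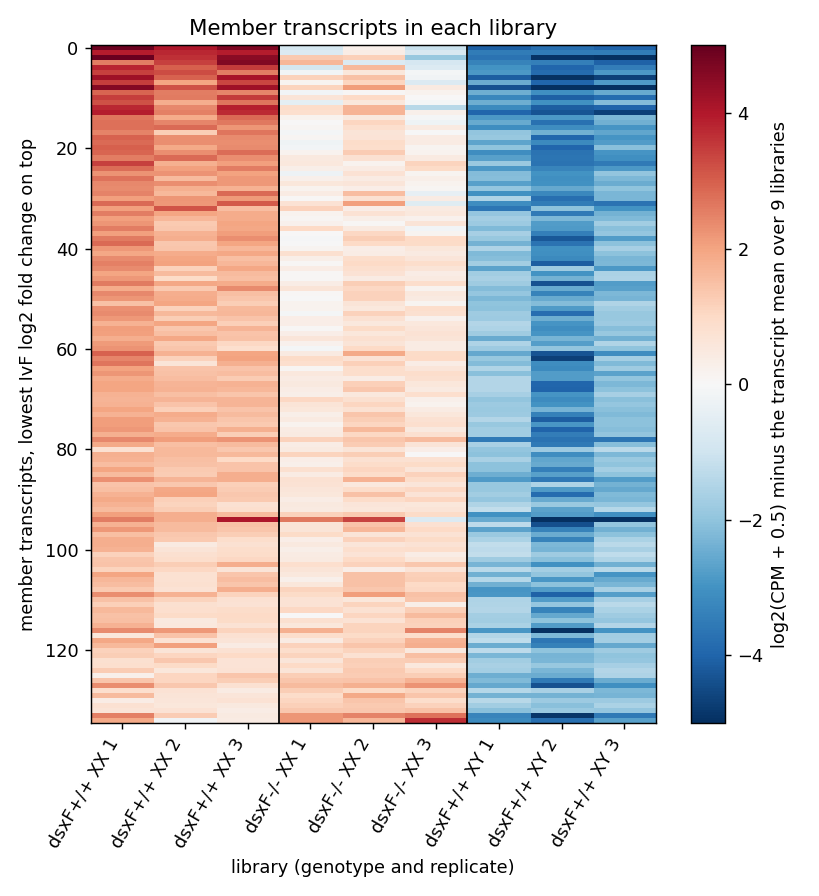
Each row is 1 of the 135 XX-high transcripts and each column 1 of the 9 libraries; colour gives log2(CPM + 0.5) minus the transcript's mean over the 9 libraries, and rows run from the lowest to the highest log2 fold change of dsxF-/- XX over dsxF+/+ XX. The 3 XY columns are blue throughout, while the 3 dsxF-/- XX columns are pale at the top and reach the colours of the dsxF+/+ XX columns only toward the bottom, and the second XY library, with a median of 1.63 CPM, is the darkest blue.

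Mean levels of the members ranged from 3.24 to 1574 CPM in females (median 89.4), from 3.53 to 720.4 CPM in intersex pedicels (median 40.9) and from 0 to 148 CPM in males (median 4.20). In females, 64 members had a mean over 100 CPM and 4 had a mean under 10 CPM. In the XY libraries, 29 members stayed under 1 CPM in every library, 14 had a count of 0 in at least 1 library, and AGAP010548-RA had a count of 0 in all 3. All 135 members passed the edgeR filter on low counts, as 12379 of the 16066 transcripts did. All 135 were called lower in males than in females (18.1% of all transcripts tested were called lower) and lower than in intersex pedicels (6.09% of all transcripts tested). The rule used both of these contrasts, so these counts carry no information beyond it.

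At the limit of 3 on the ratio of the lowest XX to the highest XY value with 0.5 added, the members just inside were AGAP009110-RA at 3.002, AGAP004164-RB at 3.003 and AGAP010731-RA at 3.009. Just outside stood AGAP028725-RA at 2.999, AGAP008654-RA at 2.991 and AGAP008685-RA at 2.988. At the limit of 2 CPM, the members with the smallest lowest XX value were AGAP007035-RA at 2.57 CPM, AGAP010548-RA at 2.72 CPM and AGAP012388-RA at 2.96 CPM, and AGAP001769-RC fell outside at 1.93 CPM. The ratio had a median of 4.11 over the members, with 63 of the 135 under 4 and 9 at 10 or more, and the values ran on across the limit without a gap.

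The members were placed among all transcripts that met the same 2 limits in females alone. There were 676 such female-high transcripts, of which the 135 were those that also met the limits in intersex pedicels. In 82 others even the highest intersex value was more than 3 times below the lowest female value (lost), and 459 lay between. Median levels in females were 89.4 CPM for the members, 55.4 CPM for the lost transcripts and 44.1 CPM for those between. In intersex pedicels the medians were 40.9, 6.97 and 15.9 CPM in the same order, and in males they were 4.20, 2.33 and 4.49 CPM. The 3 classes were cut from these values, so the order of their medians in intersex pedicels is a description and has no test.

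**Figure D2:**
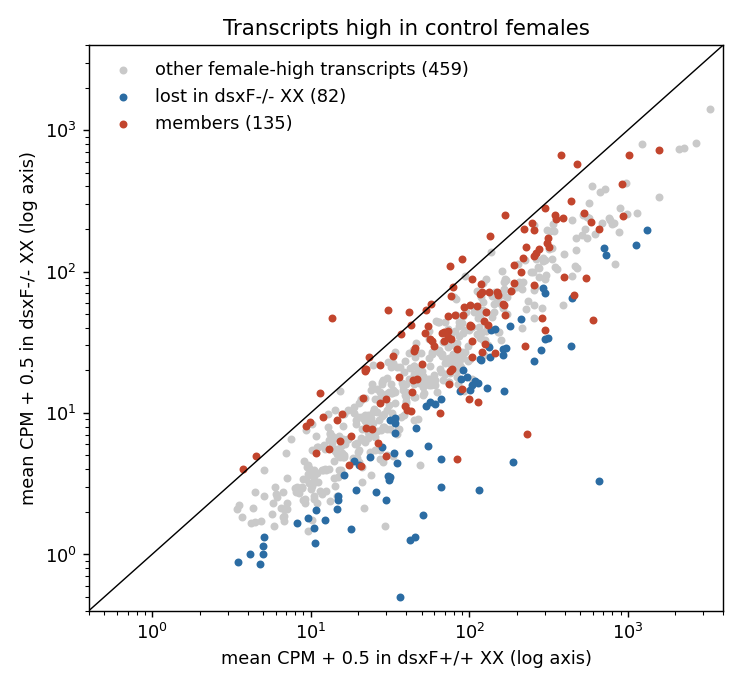
Each point is 1 of the 676 transcripts high in dsxF+/+ XX against dsxF+/+ XY, with its mean CPM + 0.5 in dsxF+/+ XX on the horizontal log axis and in dsxF-/- XX on the vertical log axis; the diagonal marks equal levels. Most of the 135 XX-high transcripts (red) lie below the diagonal, 121 of them with a lower mean in dsxF-/- XX, and they overlap the 459 other female-high transcripts (grey), with the 82 lost ones (blue) farther below.

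The comparison of intersex pedicels with females is the contrast that the rule did not fix, and it asks how far the female level was held where DsxF is disrupted. It is not free of the rule either, because a transcript that had fallen to near the XY level could not have been a member. Of the 135 members, 54 (40%) were lower in intersex pedicels by edgeR's quasi-likelihood test at an adjusted p under 0.05, beside 6.87% of all 12379 transcripts tested. Only AGAP011539-RA (0.741% of the members) was higher, beside 4.18% of all transcripts tested. For the remaining 80 the test made no call. At an unadjusted p under 0.05, 92 members were lower (15.8% of all transcripts tested) and 3 were higher (10.3% of all). The median log2 fold change of the members was -1.13 (quartiles -1.77 and -0.59, range -5.25 to 1.72), beside a median of -0.0020 over all transcripts tested, and 123 of the 135 were below 0. Of all 676 female-high transcripts, members included, 407 (60.2%) were called lower, with a median log2 fold change of -1.68. A decrease was thus not particular to the members. Their smaller share follows in part from the rule, which asked for a high intersex level. All 3 intersex libraries lay below all 3 female libraries for 91 members (67.4%; 14.7% of all transcripts tested) and above them for 4 (2.96%; 16.8% of all transcripts tested), and for 40 the 2 groups overlapped. The number of lower calls depended on single libraries. It was 28 without the first and 23 without the third female library (4.23% and 2.79% of all transcripts tested in those fits). It was 17 without the first and 21 without the third intersex library (1.94% and 2.39% of all). The share over all transcripts thus fell from 6.87% in these fits as well.

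A missed call does not show that the female level was held, so the 95% interval of each log2 fold change was read as well. It lay wholly within a 2-fold change in either direction for 13 members (9.63%), beside 41.8% of all transcripts tested. It lay wholly below a 2-fold decrease for 29 members, beside 2.88% of all transcripts tested. The remaining 67 uncalled members had intervals that reached beyond 2-fold, so a held level was not established for them, and no loss was called at the adjusted threshold. The intervals are not adjusted for the number of transcripts. Some of the 67 lay wholly below 0, such as that of AGAP000327-RA (-2.00 to -0.45). Others crossed 0, such as that of AGAP000376-RA (-1.40 to 1.04). Intervals were wider among the members than elsewhere, with a median width of 1.67 on the log2 scale against 1.34, and a median SE of 0.37 against 0.30. On a log2 scale from 0 at the XY mean to 1 at the female mean, the intersex mean stood at a median of 0.75 over the members (range 0.40 to 1.46), at 0.64 over the 54 lower ones and at 0.82 over the 80 without a call. It stood above 1 for 15 members and under 0.5 for 3.

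**Figure D3:**
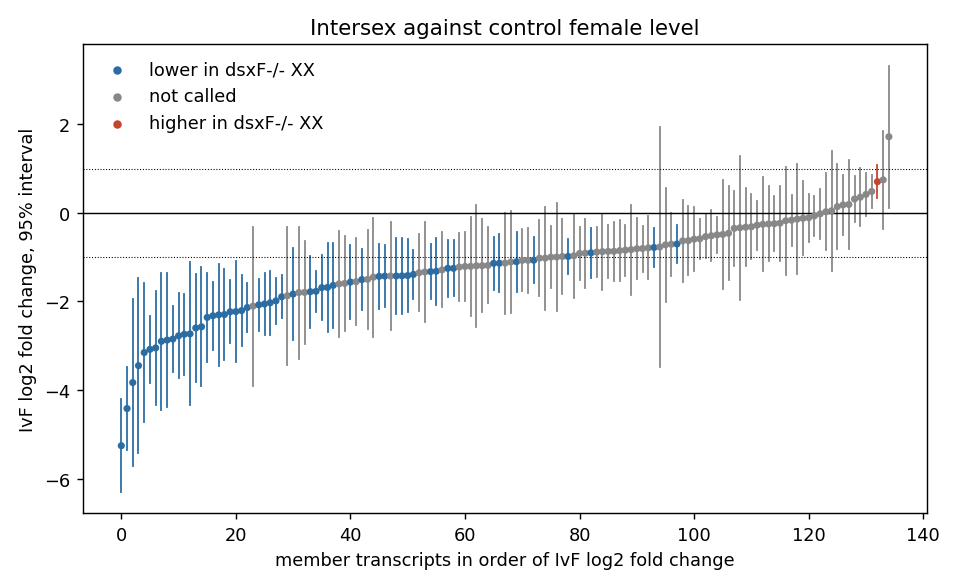
The log2 fold change of dsxF-/- XX over dsxF+/+ XX is plotted for the 135 XX-high transcripts in rising order, with bars for the 95% interval from edgeR's fit; blue marks the 54 lower at an adjusted p under 0.05, red the 1 higher and grey the 80 without a call. Dotted lines mark a 2-fold change, and most points lie below 0, with a median of -1.13.

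The 54 members that were lower in intersex pedicels had a median level of 104 CPM in females, 28.0 CPM in intersex pedicels and 2.27 CPM in males, a median decrease of 3.57-fold. They still exceeded the XY level in every library by the rule. The 3 with the lowest fold changes of all members were AGAP007454-RA, AGAP010548-RA and AGAP001556-RA. AGAP007454-RA was at 286, 159 and 247 CPM in females, at 4.73, 10.9 and 3.96 CPM in intersex pedicels and at 0.0644, 0.204 and 0.109 CPM in males. The 3 groups did not overlap, and the intersex mean was 35.3-fold below the female mean while remaining above every XY library. Its log2 fold change was -5.25 (SE 0.47, edgeR adjusted p = 4.75e-04), the lowest adjusted p of the members.

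AGAP010548-RA was even across females, at 85.4, 76.4 and 86.5 CPM, and stood at 3.03, 6.81 and 2.72 CPM in intersex pedicels. With a count of 0 in all male libraries, its intersex values of 2.72 CPM or more lay just inside the limit of 2 CPM. The decrease between the XX groups was 19.8-fold by the means (log2 fold change -4.41, SE 0.40, edgeR adjusted p = 0.00162). AGAP009879-RA, at 369.9, 335 and 202 CPM in females, was at 31.5, 51.0 and 31.8 CPM in intersex pedicels and at 4.25, 1.90 and 4.24 CPM in males. The intersex libraries lay about midway between the sexes on the log scale and overlapped neither (log2 fold change -3.08, SE 0.33, edgeR adjusted p = 0.00152). AGAP006698-RA had the lowest counts among those named for their p, at 35.7, 27.8 and 25.1 CPM in females and 3.81, 4.52 and 4.93 CPM in intersex pedicels (log2 fold change -2.85, SE 0.33, edgeR adjusted p = 0.00174).

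The other 4 members with the smallest p were lower by 3.15-fold to 4.09-fold. AGAP005781-RA was at 217, 145 and 141 CPM in females and at 46.8, 53.1 and 45.4 CPM in intersex pedicels. AGAP009184-RA was at 123, 146 and 104 CPM in females and at 28.8, 35.0 and 27.6 CPM in intersex pedicels. AGAP011871-RA was at 148, 113 and 130.0 CPM in females and at 38.2, 44.1 and 41.9 CPM in intersex pedicels. In all 3 the lowest female library was more than 2 times the highest intersex library. AGAP005795-RA, at 42.3, 39.3 and 35.3 CPM in females and 11.4, 11.8 and 8.66 CPM in intersex pedicels, showed the same separation. Their edgeR adjusted p ran from 0.00162 to 0.00174, and the calls of all 8 members with the smallest p held with each library left out in turn.

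The members with the most counts were not those with the firmest calls. AGAP000327-RA had the highest mean over the XX libraries, at 2329, 1301 and 1092 CPM in females, 621, 831 and 709 CPM in intersex pedicels and 182, 78.5 and 184 CPM in males. The XX groups did not overlap, and the difference missed the threshold (log2 fold change -1.22, SE 0.34, 95% interval -2.00 to -0.45, edgeR adjusted p = 0.0515). Without the second female library it passed (0.0440), as it did without the second male library (0.0202). AGAP002556-RA was at 1298, 589 and 895 CPM in females and at 237, 259.7 and 239 CPM in intersex pedicels. The intersex libraries were close together and all below the female ones, and the decrease was called (log2 fold change -2.03, SE 0.32, edgeR adjusted p = 0.00578). AGAP005888-RA was at 1116, 1003 and 916 CPM in females, at 519, 901 and 568 CPM in intersex pedicels and at 132, 15.1 and 85.0 CPM in males, where the second library stood far below the others. The second intersex library came close to the lowest female library, and no difference was called (log2 fold change -0.72, SE 0.57, edgeR adjusted p = 0.474).

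Among the 9 members with a ratio of 10 or more, 5 were lower in intersex pedicels and 4 had no call. AGAP008055-RA had the largest ratio, 27.8, with 0.772, 0 and 0.0544 CPM in males, 635, 237 and 499 CPM in females and 56.0, 112 and 35.4 CPM in intersex pedicels. It was all but undetected in males, and the decrease between the XX groups was 6.75-fold (log2 fold change -2.87, SE 0.67, edgeR adjusted p = 0.0273). AGAP012321-RA, with a ratio of 25.9, varied little in any group, at 345, 283 and 316 CPM in females, 148, 172 and 199 CPM in intersex pedicels and 5.21, 4.62 and 4.73 CPM in males. Its decrease was 1.82-fold (log2 fold change -0.98, SE 0.18, edgeR adjusted p = 0.0101), a small change against a large distance to the male level. AGAP029386-RA (ratio 18.1) and AGAP002196-RA (ratio 14.6) were under 1 CPM in every XY library and 5.57-fold and 7.63-fold lower in intersex pedicels (edgeR adjusted p = 0.0173 and 0.0120). AGAP008338-RA, with a ratio of 13.3, was 1.60-fold lower (edgeR adjusted p = 0.0335). All 5 calls were lost without the first intersex library (edgeR adjusted p = 0.112, 0.0601, 0.0827, 0.0513 and 0.108 in the order given), and all but that of AGAP002196-RA without the third female library (0.0773, 0.0503, 0.0578 and 0.0775). Without the third intersex library, those of AGAP008055-RA, AGAP029386-RA and AGAP008338-RA were lost (0.104, 0.0694 and 0.125). Without the first female library, those of AGAP008055-RA and AGAP008338-RA were lost (0.0616 and 0.0869), and that of AGAP008338-RA was also lost without the second intersex or the third male library (0.0669 and 0.0513).

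The 4 members of this kind without a call were AGAP000376-RA, AGAP011294-RA, AGAP003689-RA and AGAP028646-RA. AGAP000376-RA was at 396, 341 and 164 CPM in females, at 261, 164 and 424 CPM in intersex pedicels and at 9.72, 1.70 and 9.14 CPM in males. The XX groups spanned the same range (log2 fold change -0.18, SE 0.54, 95% interval -1.40 to 1.04, edgeR adjusted p = 0.875). AGAP011294-RA was at 683, 286 and 162 CPM in females and at 555, 656 and 789 CPM in intersex pedicels, with 11.7, 3.60 and 9.90 CPM in males. The first female library lay among the intersex ones and the other 2 lay below them (log2 fold change 0.74, SE 0.49, 95% interval -0.36 to 1.85, edgeR adjusted p = 0.382). AGAP003689-RA was at 149, 98.6 and 64.5 CPM in females and at 57.7, 126 and 82.2 CPM in intersex pedicels. AGAP028646-RA, with an interval of -1.54 to -0.20 (edgeR adjusted p = 0.0948), was lower without the second intersex library (0.0430). The intervals of all 4 reached beyond a 2-fold change, so an unchanged level was not shown for any of them.

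**Figure D4:**
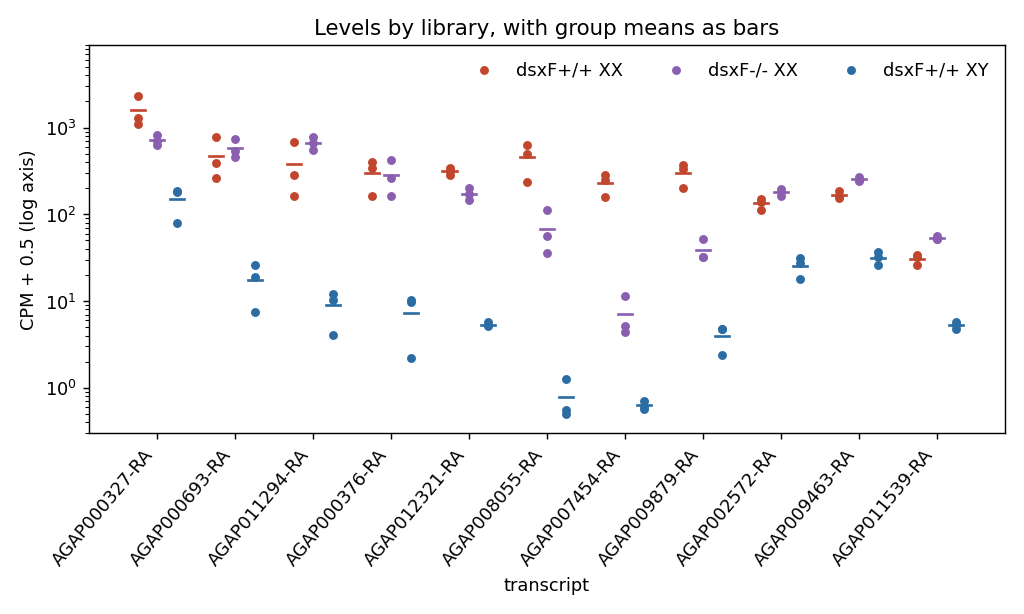
CPM + 0.5 on a log axis is shown for 11 XX-high transcripts in each of the 9 libraries, with dsxF+/+ XX in red, dsxF-/- XX in purple and dsxF+/+ XY in blue, and bars for group means. In AGAP007454-RA and AGAP009879-RA the intersex points lie well below the female ones, in AGAP000376-RA they mix with them, and in AGAP011539-RA they lie above them, at 51.1 to 56.5 CPM against 25.7 to 33.2 CPM.

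The 13 members whose intervals lay within 2-fold had median levels of 42.3 CPM in females, 50.8 CPM in intersex pedicels and 5.23 CPM in males. They are the members whose intervals left out a change of 2-fold or more, which is not the same as no change. Their log2 fold changes ran from -0.50 to 0.48. The highest was that of AGAP009463-RA, whose 95% interval of 0.10 to 0.86 lay wholly above 0. AGAP010816-RA was at 20.2, 29.9 and 18.7 CPM in females, at 17.8, 27.5 and 27.8 CPM in intersex pedicels and at 3.09, 1.90 and 2.61 CPM in males. Its XX libraries interleaved (log2 fold change -0.02, SE 0.25, 95% interval -0.59 to 0.55, edgeR adjusted p = 0.969). AGAP029611-RA, chosen after its values were seen, was at 61.1, 55.5 and 53.0 CPM in females, 56.8, 44.4 and 74.1 CPM in intersex pedicels and 4.89, 4.76 and 6.04 CPM in males (log2 fold change -0.07, 95% interval -0.52 to 0.38, edgeR adjusted p = 0.869). AGAP007035-RA had the fewest counts of the 13, at 3.29, 3.58 and 2.86 CPM in females and 3.74, 4.27 and 2.57 CPM in intersex pedicels, and stayed at or under 0.195 CPM in males.

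For 4 members every intersex library was above every female library. AGAP011539-RA was at 31.7, 33.2 and 25.7 CPM in females, at 51.1, 51.4 and 56.5 CPM in intersex pedicels and at 4.25, 5.17 and 4.79 CPM in males. The intersex level was 1.75-fold the female one (log2 fold change 0.70, SE 0.16, edgeR adjusted p = 0.0268), the only call in this direction. That call was lost without the first or the third female library, without any 1 of the intersex libraries or without the third male library, with adjusted p up to 0.106, while the log2 fold change stayed between 0.67 and 0.75 over 20 alternatives, of which 12 kept the call. AGAP009463-RA was at 188, 162 and 152 CPM in females and at 247, 268 and 241 CPM in intersex pedicels, and had no call (edgeR adjusted p = 0.0995). AGAP002572-RA was at 152, 139.9 and 111 CPM in females and at 194, 163 and 179 CPM in intersex pedicels, also without a call (edgeR adjusted p = 0.446). The fourth was AGAP004164-RA, at 92.7 to 130.1 CPM in intersex pedicels and 65.3 to 82.9 CPM in females. The highest fitted fold change belonged to AGAP001508-RA, at 25.2, 5.57 and 8.48 CPM in females and 30.9, 21.3 and 86.9 CPM in intersex pedicels, where the groups overlapped and the interval ran from 0.12 to 3.32 (edgeR adjusted p = 0.160).

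AGAP011539 was the only member gene in the study's list of dynein genes. Dyneins are motors that slide microtubules against each other in motile cilia or carry cargo along them. Of 37 transcripts of that list that were tested, 13 were higher (4.18% of all transcripts tested) and 0 lower (6.87% of all) in intersex pedicels than in females, with a median log2 fold change of 0.80, and AGAP011539-RA is 1 of the 13. At an unadjusted p under 0.05 the count of lower ones was also 0 (15.8% of all transcripts tested), as it was at an adjusted p under 0.05 by DESeq2 and by limma-voom. The study reported the list on these same libraries, so its direction is not independent evidence. The transcript with the next identifier, AGAP011540-RA, an axonemal dynein intermediate chain by the study's annotation, was at 25.5, 25.2 and 20.2 CPM in females, 204, 251 and 203 CPM in intersex pedicels and 551, 478 and 562 CPM in males. For both, all intersex libraries lay above all female ones, while in males the member was lowest, as its selection requires, and its neighbour by number highest.

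Reads that fit several transcripts were divided between them by estimation. Within a gene, this bears on the 12 member genes with more than 1 transcript. The other 122 had a single one. Estimated counts were not whole numbers for 16.3% of the members in the second male library and up to 22.2% in other libraries. These are more members than the 12 genes hold. Counts of some members with a single transcript may therefore have been divided between genes, which was not tested. The 12 genes held 13 members and 21 other transcripts, which the rule did not select. Of these 21, 15 were lower and 1 was higher in males than in females (18.1% and 11.7% of all transcripts tested), and 6 were lower in males than in intersex pedicels (6.09% of all). In intersex pedicels against females, 3 were lower and 1 was higher (6.87% and 4.18% of all). These transcripts share genes, and possibly reads, with the members, so the counts are a description. In gene AGAP000179, -RB was a member while -RA belonged to the lost class and -RC to those between, with -RA at 123, 97.5 and 121 CPM in females and 10.1, 16.7 and 20.5 CPM in intersex pedicels.

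Gene AGAP008054 showed the 1 transcript of the 21 that was higher in males. The member AGAP008054-RC was at 122, 29.9 and 65.4 CPM in females, at 34.1, 43.5 and 24.5 CPM in intersex pedicels and at 3.78, 1.78 and 3.76 CPM in males. Of the 3 other transcripts of the gene, -RA and -RD stayed at or under 7.35 CPM in every library, and AGAP008054-RB was at 387, 161 and 164 CPM in females, at 1858, 3232 and 2469.8 CPM in intersex pedicels and at 914, 719 and 1432 CPM in males. All its intersex and male libraries lay above the female ones (log2 fold change of intersex pedicels over females 3.31, SE 0.41, edgeR adjusted p = 0.00204; of males over females 2.13, SE 0.39, adjusted p = 0.00312). The member made up 15.3% to 27.9% of the gene's counts in female libraries, 0.982% to 1.79% in intersex pedicels and 0.245% to 0.412% in males. Summed over its 4 transcripts, the gene was higher in intersex pedicels (log2 fold change 2.93, edgeR adjusted p = 0.00156) and in males (1.74, adjusted p = 0.00533) than in females, the direction opposite to that of its member transcript.

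In gene AGAP004050 the member AGAP004050-RB was at 510.0, 1108 and 360.4 CPM in females, at 277, 156 and 168 CPM in intersex pedicels and at 9.76, 29.6 and 15.1 CPM in males. The groups did not overlap, and the decrease in intersex pedicels missed the threshold (log2 fold change -1.80, SE 0.52, edgeR adjusted p = 0.0547), though it passed without the first or the second male library (0.0483 and 0.0272). AGAP004050-RA was at 384, 612 and 374 CPM in females, at 644, 458 and 589.7 CPM in intersex pedicels and at 213, 306 and 227 CPM in males (log2 fold change of intersex pedicels over females 0.20, SE 0.27, edgeR adjusted p = 0.694). The share of the gene's counts given to the member was 49.1% to 64.4% in female libraries, 22.2% to 30.1% in intersex pedicels and 4.38% to 8.81% in males. The 3 ranges did not overlap, and the intersex share lay between the sexes. No test of the shares was made, and the sources used here gave no name for this gene.

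**Figure D5:**
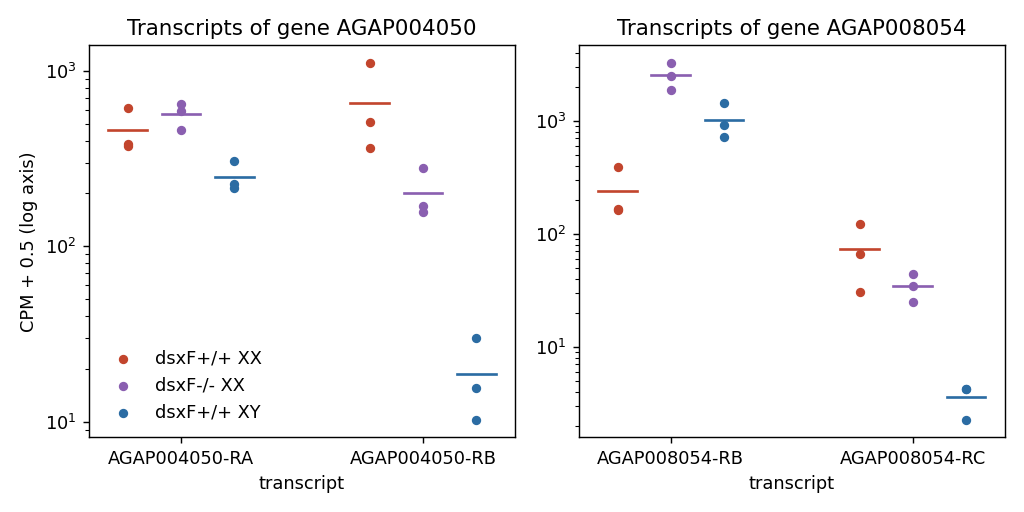
CPM + 0.5 on a log axis in the 9 libraries is shown for the 2 transcripts of gene AGAP004050 (left) and the 2 of the 4 transcripts of gene AGAP008054 with the most counts (right), with dsxF+/+ XX in red, dsxF-/- XX in purple, dsxF+/+ XY in blue and bars for group means. The members, AGAP004050-RB and AGAP008054-RC, are lowest in XY, whereas AGAP008054-RB is lowest in dsxF+/+ XX, at 161 to 387 CPM.

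Of the 4 transcripts of gene AGAP004164, -RA and -RB were members, and the other 2 were at means of 7.95 and 11.8 CPM in females. AGAP004164-RB was at 497, 386 and 422 CPM in females, at 294, 359 and 288 CPM in intersex pedicels and at 95.3, 64.7 and 92.1 CPM in males. AGAP004164-RA was at 65.3, 77.0 and 82.9 CPM in females, at 104, 130.1 and 92.7 CPM in intersex pedicels and at 18.6, 13.8 and 13.8 CPM in males. In intersex pedicels AGAP004164-RB lay below all female libraries and AGAP004164-RA above them, and neither difference was called (edgeR adjusted p = 0.0927 and 0.268). Summed over all 4 transcripts, the gene had a log2 fold change of -0.38 (SE 0.19, edgeR adjusted p = 0.223).

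Of the 134 member genes, 34 (25.4%) had another member gene within 10 identifier numbers. The same held within their own class for 16 of 80 lost genes (20%) and 233 of 440 genes between (53.0%), shares that rise with the size of a class and were not tested. Positions in the genome were not looked up. The longest run was AGAP011780 to AGAP011791 with 5 member genes, whose summed level was 722 to 1150.1 CPM per female library, 269 to 448 CPM in intersex pedicels and 21.8 to 71.7 CPM in males. All 5 had negative log2 fold changes in intersex pedicels, with a median of -1.19, and 2 were called lower. A run of 3, AGAP012388 to AGAP012395, held 2 of the members with the most counts, and all 3 were lower in intersex pedicels (median log2 fold change -1.25). AGAP012395-RA was at 1180.4, 821 and 765 CPM in females and at 357, 425 and 469 CPM in intersex pedicels, and AGAP012394-RA at 637, 516 and 434 CPM and at 234, 230.2 and 313 CPM. The pair fell by nearly the same factor, 2.21-fold and 2.04-fold (edgeR adjusted p = 0.0239 and 0.0375). Their estimated counts were not whole numbers, so reads may have been divided between the 2 genes, and the falls may not be separate. Without any 1 of the intersex libraries both calls were lost (edgeR adjusted p from 0.0711 to 0.135), as they were without the first (0.0668 and 0.0963) or the third female library (0.0652 and 0.0934), and the call of AGAP012394-RA was also lost without the third male library (0.0648).

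The 4 member genes from AGAP010812 to AGAP010816 had no call, with log2 fold changes from -1.02 to -0.02. Apart from AGAP010816-RA, described above, they were lower by the means: AGAP010812-RA at 112, 149 and 95.8 CPM in females against 59.7, 74.4 and 80.8 CPM in intersex pedicels missed the threshold at an edgeR adjusted p of 0.0651. In the run of 4 from AGAP007033 to AGAP007043 only AGAP007043-RB was called, at 79.0, 78.8 and 66.7 CPM in females and 13.5, 27.2 and 17.6 CPM in intersex pedicels (log2 fold change -2.06, SE 0.31, edgeR adjusted p = 0.00458). AGAP007039-RA of the same run was at 777, 555 and 427 CPM in females and at 142, 274 and 252 CPM in intersex pedicels without a call (edgeR adjusted p = 0.0854), and passed without the second male library (0.0141). The pair AGAP000693 and AGAP000694 was near the female level by the means, with AGAP000693-RA at 773, 392 and 260.3 CPM in females, 463, 534 and 731 CPM in intersex pedicels and 25.7, 6.99 and 18.2 CPM in males (log2 fold change 0.19, SE 0.45, edgeR adjusted p = 0.837). Members with near identifiers thus ranged from a called decrease to no call.

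Single libraries stood apart for some members. The highest value over the lowest of a group, with 0.5 CPM added, had a median over the members of 1.69 in females, 1.62 in intersex pedicels and 1.98 in males, against 1.65, 1.42 and 1.53 over all transcripts tested. It exceeded 4 for 5 members in females (3.7%, against 5.89% of all transcripts tested), for 7 in intersex pedicels (5.19% against 2.85%) and for 16 in males (11.9% against 3.72%). The widest within intersex pedicels, chosen after its values were seen, was AGAP029062-RA, at 163, 270.4 and 15.7 CPM, beside 152, 92.7 and 438 CPM in females (log2 fold change -0.77, SE 1.20, edgeR adjusted p = 0.739). AGAP001556-RA was at 838, 338 and 623 CPM in females and at 66.1, 62.3 and 6.88 CPM in intersex pedicels, and AGAP009056-RA at 660.3, 255 and 713 CPM and at 92.3, 157 and 18.2 CPM. In all 3 of these members the third intersex library was the low one. The decrease of AGAP001556-RA (13.3-fold, edgeR adjusted p = 0.0210) was lost without the third female (0.0572), the first intersex (0.0629) or the second intersex library (0.0582). The decrease of AGAP009056-RA (6.09-fold, edgeR adjusted p = 0.0403) held without the second female, the second intersex or the second male library and was lost without any other 1 (adjusted p up to 0.129). Without the third intersex library, the low one, AGAP001556-RA kept its call and AGAP009056-RA did not (0.0589).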

How the data were processed

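RNA from pools of pedicels was amplified with the SMART-Seq v4 kit and sequenced in 9 libraries, 3 per genotype. The authors quantified reads with kallisto against AgamP4.12 transcripts, and the deposited table holds the resulting estimated counts, not scaled for depth or length; versions were not given in the sources used here. Every column was assigned to a sample by its label, and 0 were left over. The members, gene lists and tests were chosen with earlier results of these data known.

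Estimated counts were rounded and tested with edgeR 4.0.16 under R 4.3.3 (scaled by TMM, filterByExpr, 1 fit of 3 groups, quasi-likelihood test, Benjamini-Hochberg adjusted p under 0.05 over 12379 transcripts; 3687 were not tested). The 95% intervals include the spread between libraries, and p-values measure only that spread, since nothing states that the repeats came from separate cages. Contrasts with males chose the members, so for the members their calls are a description; for other transcripts of the same genes they are given with the shares over all transcripts tested. The script was tested on simulated data. Alternatives were DESeq2 1.42.0, limma-voom (limma 3.58.1), DESeq2 size factors, other filters, only the groups compared, sums to genes, replicate blocks, a stricter threshold, each library left out and other limits of the rule.

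Transcripts named were the 12 members with the highest mean over XX libraries, the 10 with the largest ratio, up to 8 per direction with the smallest p in intersex pedicels against females, those at the limits of the rule and those in runs of near identifiers; others are members of genes with several transcripts, the few in a count of 5 or fewer, or chosen once their values had been seen. Of 26 keyword lists, including markers of other tissues, 6 had a described transcript and 0 held a member, because names were at hand for only 82 transcripts, 0 of them members; the reference table matched 0 identifiers. Carry-over of other tissues, genome positions and promoter sequences were not analysed here.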

Additional observations from a re-analysis of the deposited data

How the results depend on the processing

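Of the 29 transcripts named by rule, 577 of 580 values over 20 alternatives kept their direction, and the 19 called in the comparison of intersex pedicels with females kept it throughout. The exceptions had no call in any fit: AGAP000693-RA ranged from -0.0571 to 0.679 on the log2 scale and AGAP000376-RA from -0.55 to 0.12 with single libraries left out. The 54 lower calls (6.87% of all transcripts tested) became 17 at an adjusted p under 0.01 (1.67% of all). With 1 library left out they ran from 17 without the first intersex library (1.94%) to 78 without the second male library (8.6%). They were 88 (11.7%) without the second library of both dsxF+/+ groups, an alternative chosen after seeing the data. DESeq2 made 80 (11.9%) and limma-voom 72 (8.43%), each including all 54. The 1 higher call became 2 with DESeq2 (7.13% of all transcripts tested) or with transcripts summed to genes. It became 0 with the replicate block (3.22%) or at an adjusted p under 0.01 (1.47%), and 0 to 1 with a library left out (1.77% to 7.31%). Same-numbered female and intersex libraries did not deviate together (r = -0.279, -0.146 and 0.0936), and the number was not used as a pairing. So few libraries cannot exclude one. With the replicate block 37 members were lower (4.72% of all transcripts tested). Blocks by the sample numbers in the column labels join same-numbered female and intersex libraries, but not all same-numbered male ones. With these blocks 39 were lower (5.63% of all). Members with intervals within 2-fold ran from 8 to 19 and the median log2 fold change from -1.30 to -1.02 with a library left out. With a ratio of 2 the rule gave 320 members and 1039 female-high transcripts, with 5 it gave 39 and 369, and with a library left out it gave 136 to 202 members, 676 to 774 female-high and 74 to 171 lost ones (141 without the second female library). The causes were not tested. Levels under about 1 CPM in males rest on few counts.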
